A study of Mus musculus with 12 samples.

Results

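Vascular smooth muscle cells of the mouse joint were examined in single-cell RNA sequencing of CD45-negative synovial cells. The cells were selected on 2 or more *Myh11* unique molecular identifiers (UMIs, each standing for 1 captured transcript), at least 2 of the 4 mural genes *Notch3*, *Mcam*, *Rgs5* and *Acta2* detected, at most 1 of the 5 endothelial genes *Pecam1*, *Cdh5*, *Kdr*, *Emcn* and *Egfl7* detected, and more than 500 and fewer than 5000 detected genes per cell. In all, 297 of 20213 cells within the gene limits met the rule, from all 12 libraries.

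The study profiled serum transfer-induced arthritis (STIA), in which serum from arthritic K/BxN mice is injected into a vein and the joint swells and then recovers. The mice were wild-type C57BL/6 young adult males, and each library held live CD45-negative cells sorted from the hind limb joints of 3 pooled animals. Animals of the 3 rest libraries (day 0) received no serum. A dose of 100 µl came 7 to 9 days before the 3 peak libraries, 15 days before the 3 resolving and 22 days before the 3 resolved libraries. Enzymes released the cells, which were run on 10x Genomics 3′ version 2 chemistry, so 1 tag near the 3′ end stood for each transcript.

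Smooth muscle cells wrap arteries, arterioles and venules and set vessel width by contracting. Calcium entering the cell or leaving its stores activates myosin light chain kinase, and nitric oxide acting through cyclic GMP reverses the contraction. These cells are known for passing between a contractile state, rich in smooth muscle myosin and actin regulators, and a synthetic state in which the same cells lay down matrix, and pericytes are their relatives around capillaries.

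Median depth was 5358 UMIs per deposited cell in every library, and kept cells held 7739438 to 16750555 UMIs per library. No cell barcode occurred in more than 1 library (0 shared barcodes). The barcodes carried a suffix from 1 to 12 whose order cut across the labels. Suffixes 1 to 3 belonged to rest, peak and resolving replicate 1, suffixes 4 to 6 to resolved replicate 1 with rest and peak replicate 2, suffixes 7 to 9 to resolving and resolved replicate 2 with rest replicate 3, and suffixes 10 to 12 to peak, resolving and resolved replicate 3. What this order stands for is not given in the sources used here, so results are shown by label and by run of 3 suffixes. Whether the titles and the files of the libraries correspond could not be checked from the data alone, and every comparison of labelled stages takes the labels as given.

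The label was checked on genes the rule did not use. *Tagln*, which encodes the actin-binding protein transgelin, was detected in 98.0% of the smooth muscle cells, against 56.1% of pericytes and 6.00% of fibroblasts. *Myl9*, the regulatory myosin light chain, was detected in 99.7%, 81.1% and 10.8% of the same classes. *Lmod1*, which builds actin filaments, was detected in 62.6%, 19.5% and 0.184%, and *Cnn1*, the thin-filament protein calponin, in 50.5%, 2.44% and 0.521%. All 4 genes were most often detected in the class chosen for *Myh11* and least often in fibroblasts. Whether the fibroblast shares are background or expression was not tested. *Des*, the intermediate filament desmin, was detected in 66.3% of smooth muscle cells and 78.7% of pericytes and did not set these 2 classes apart, against 5.21% of fibroblasts. Median depth was 4539 UMIs per smooth muscle cell, 3683.5 per pericyte and 7255 per fibroblast. *Myod1*, *Pax7* and *Myf5*, which mark skeletal muscle precursors, and the Schwann cell genes *Sox10* and *Mbp* had no UMI in the 297 cells, and neither did the leukocyte genes *Ptprc* and *Cd52*. Other markers of these cell types were detected, 6 of 9 for skeletal muscle, 2 of 5 for Schwann and 6 of 8 for immune cells. Their summed levels reached 98.2, 71.8 and 80.3 CPM in the highest library.

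The rule genes are given as a description. Of 334 cells with at least 2 *Myh11* UMIs, 12 had too few mural genes and 25 too many endothelial genes. Among members, 98 had all 4 mural genes, 130 had 3 and 69 had 2, while 280 had none of the endothelial genes and 17 had 1. Just inside the limit, the 55 members with exactly 2 *Myh11* UMIs had pooled levels, as CPM (a gene's UMIs scaled by all UMIs of the pooled cells), of 6511 for *Acta2*, 2100 for *Tagln* and 103 for *Cnn1*. Just outside it, the 116 cells with 1 *Myh11* UMI that met the other limits had 4460 CPM of *Acta2*, 1597 of *Tagln* and 19.5 of *Cnn1*. The 242 members with 3 or more reached 16310, 7228 and 727 CPM. In the pericyte direction, *Rgs5*, a regulator of G-protein signalling, stood at 6914 CPM just outside, 7085 just inside and 3058 further in, and the pericyte channel gene *Kcnj8* at 287, 257 and 66.8 CPM. The cells at the limit were thus closer to each other than to the members far inside it.

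Smooth muscle cells made up 0.638 to 2.91% of the kept cells of a library, with no difference between the labelled stages that passed a test. The rest libraries held 31 cells (1.78%), 20 (1.096%) and 8 (0.638%). The peak libraries held 24 (1.78%), 30 (1.84%) and 32 (1.31%), and the resolving libraries 17 (1.38%), 13 (0.755%) and 13 (0.912%). The resolved libraries held 38 (2.91%), 56 (2.03%) and 15 (0.982%) and spanned nearly the range of the whole series. The 95% Wilson interval was 0.324 to 1.25% for the lowest library and 2.13 to 3.97% for the highest, covering counting error only. Mean shares were 1.17% ± 0.572 (SD, n = 3) at rest, 1.64% ± 0.287 at peak, 1.02% ± 0.326 in the resolving and 1.98% ± 0.966 in the resolved libraries. The exact permutation test of the F statistic over the 4 labels gave p = 0.255, and over the 4 runs of suffixes p = 0.306. Against rest, two-sided exact permutation tests gave p = 0.2, 0.7 and 0.3 (0.45, 0.7 and 0.45 after Benjamini-Hochberg adjustment over the 3), where 3 libraries against 3 cannot go below p = 0.1. Without resolved replicate 3 the test over labels gave p = 0.0275 (exact permutation).

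**Figure D1:**
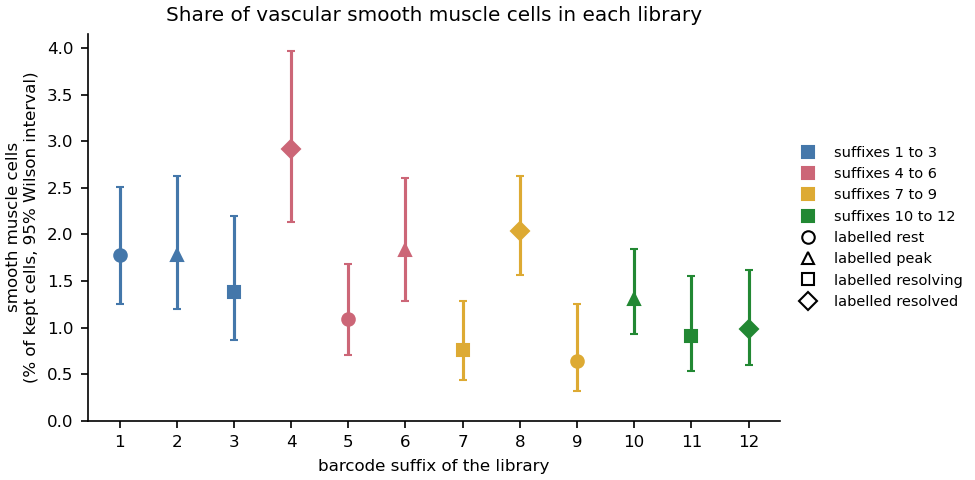
Share of kept cells that met the smooth muscle rule (vertical axis, percent) in each of the 12 libraries, ordered by barcode suffix, with 95% Wilson intervals as bars, colour for the run of suffixes and marker shape for the label. The resolved libraries ran from 0.982 to 2.91%, and the labelled stages overlapped.

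Among mural cells, counted as smooth muscle cells plus pericytes, the share that was smooth muscle differed between runs of suffixes. It was 78.6% ± 2.02 (SD, n = 3) with suffixes 1 to 3, 69.8% ± 11.9 with 4 to 6, 43.1% ± 10.3 with 7 to 9 and 74.0% ± 6.49 with 10 to 12. The libraries with suffixes 7 to 9 therefore held more pericytes than smooth muscle cells on average. The exact permutation test over the 4 runs gave p = 0.00922 and over the 4 labels p = 0.691. This denominator was an alternative to the share of all kept cells, which gave no such difference.

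Smooth muscle cells were next set against their nearest relatives. Pericytes were cells without a *Myh11* UMI, with at least 2 *Rgs5* UMIs and at least 2 of *Notch3*, *Mcam*, *Kcnj8* and *Abcc9*, and numbered 164. Fibroblasts were chosen on *Pdgfra* and matrix genes and numbered 3265. UMIs were summed per library and class over at least 10 cells and tested with edgeR (quasi-likelihood, library as a block). A gene was called past an adjusted p of 0.05 when its log2 difference also exceeded 0.5 in size. Of 5590 genes tested, 288 were higher in smooth muscle cells than in pericytes (5.15%) and 122 lower (2.18%), from 11 smooth muscle and 6 pericyte sums, with 5 libraries giving both. *Myh11* chose one class and excluded from the other, so genes that go with it differ partly through the choice. The 410 calls were 156 when smooth muscle cells and pericytes were fitted alone and 686 without cells with 3 or more fibroblast markers.

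The contractile apparatus set the classes apart. Of the 28 genes of this list, 26 were higher in smooth muscle cells and 0 lower, with a median log2 difference of 2.07, against -0.02 over all genes tested. *Tagln* ranged from 4275 to 8956 CPM in smooth muscle sums and from 299.99 to 1456 in pericyte sums, with no overlap (log2 difference 3.59 ± 0.45 SE, adjusted p = 1.21e-05 by edgeR with the Benjamini-Hochberg method, as for the adjusted p-values that follow). *Cnn1* stood at 242 to 1215 CPM against 0 to 17.0 CPM, the widest gap of the list by log2 difference (6.27 ± 0.48, adjusted p = 8.66e-09). *Myl9* averaged 6855 ± 2383 CPM (SD, n = 11) against 1123 ± 344 (n = 6), and *Tpm2*, which encodes a tropomyosin of the thin filament, 5098 ± 1165 against 751 ± 227. *Actg2*, the smooth muscle gamma actin, averaged 593 ± 363 against 73.9 ± 86.0 CPM, and its ranges overlapped although its log2 difference of 3.31 passed the test. The integrin *Itga8* had 129 UMIs against 2, a ratio of 24.5 (95% counting interval 6.65 to 205). The 2 members of the list that did not pass were *Des* (-0.45, adjusted p = 0.436) and the focal adhesion protein *Tln1* (0.72, adjusted p = 0.0586).

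**Figure D2:**
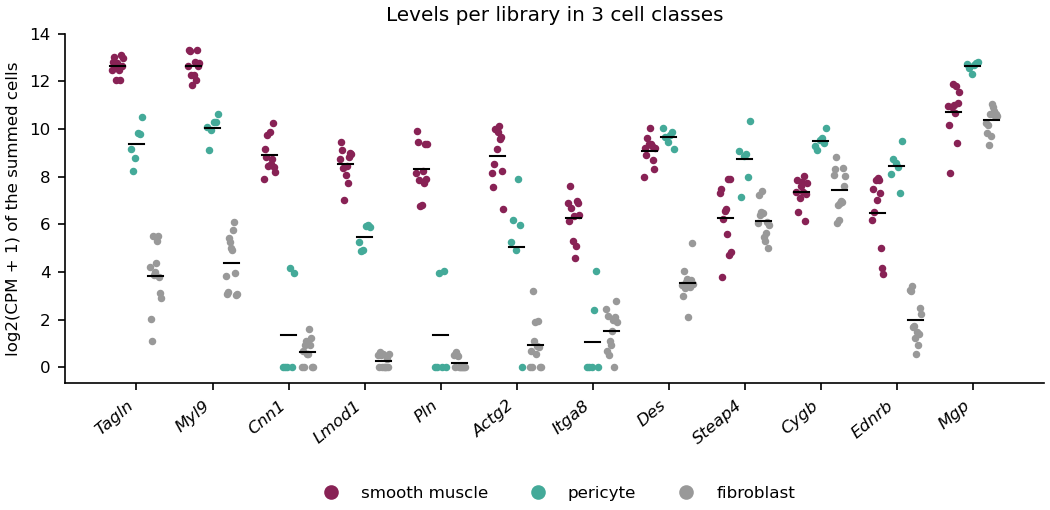
Levels of 12 genes (log2 of CPM + 1) in each library's summed smooth muscle cells (n = 11), pericytes (n = 6) and fibroblasts. Each point is 1 library sum and each line the mean of the points, and *Tagln*, *Myl9* and *Cnn1* lay higher in every smooth muscle sum than in any pericyte sum.

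A candidate feature of contractile gene promoters is the CArG box, the sequence bound by serum response factor, which is known for turning on smooth muscle actin and myosin light chain genes. RefSeq promoter windows (build GRCm38.p6) were searched over 250 bases before each gene's start for CC, 6 bases of A or T and GG, with at most 1 of the 6 core bases differing. The box reads in the same form on both strands. The matches of list genes and of *Acta2* are printed on the gene's strand with the box in capitals and 10 bases on each side. The search pattern itself sets how alike the boxes look. *Myh11* and *Pln* were searched for as well and gave no match.
*Acta2*, chr19:34255438-34255467, minus strand: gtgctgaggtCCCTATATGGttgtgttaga
*Acta2*, chr19:34255388-34255417, minus strand: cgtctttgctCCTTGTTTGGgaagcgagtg
*Myl9*, chr2:156775293-156775322, plus strand: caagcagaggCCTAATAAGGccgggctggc
*Myl9*, chr2:156775355-156775384, plus strand: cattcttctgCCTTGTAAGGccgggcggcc
*Myl6*, chr10:128493040-128493069, minus strand: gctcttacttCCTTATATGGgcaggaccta
*Vcl*, chr14:20929161-20929190, plus strand: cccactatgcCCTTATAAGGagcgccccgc
*Dstn*, chr2:143915215-143915244, plus strand: gtggcgacttCCATGTATGGgcaaaggccg
*Pdlim3*, chr8:45885377-45885406, plus strand: tctctcacttCCAAAGTTGGagctctcctt

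Of the 26 contractile genes with a promoter entry, 5 held a box (19.2%), against 9.77% of 27018 genes and 1 of 14 pericyte genes (7.14%). *Tagln*, *Cnn1*, *Actg2* and *Lmod1* were not among the 5. With no core exception the shares were 11.5% (3 genes, *Myl6*, *Myl9* and *Vcl*) and 1.62%. The boxes lay from 34 to 227 bases before the RefSeq start, and GENCODE places those of *Acta2* and *Myl6* in an annotated exon. A match is a description of the letters in this window and is no evidence of binding. The 5 list genes printed were all higher in smooth muscle cells than in pericytes, as were 26 of the 28 genes of the list. A link between box and level was not tested, and *Acta2*, a rule gene, was not in that comparison.

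Calcium handling and channels went the same way in part. Of 15 genes of this list, 6 were higher in smooth muscle cells and 0 lower (median log2 difference 1.18). *Pln*, the phospholamban that restrains the calcium pump of the endoplasmic reticulum, had 542 UMIs in the smooth muscle sums and 2 in the pericyte sums, a ratio of 103 (95% counting interval 28.4 to 853). That ratio pools all sums, and no library with suffixes 1 to 3 gave a pericyte sum. With library as a block, its log2 difference was 6.44 (adjusted p = 1.14e-07). *Pln* overlaps *Cep85l* on the other strand. The potassium channel subunit *Kcnab1* was higher by 3.25 and the calcium-activated potassium channel subunit *Kcnmb1* by 1.98 on the log2 scale. *Atp2a2*, the pump itself, and the plasma membrane pump *Atp2b4* were each higher by 1.18.

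Few receptor and signalling genes for vasoactive signals passed. Of 17 such genes, 1 was higher in smooth muscle cells and 2 were lower (median 0.23), against 5.15 and 2.18% of all genes. *P2rx1*, the channel opened by ATP from sympathetic nerves, had 193 UMIs against 1, a ratio of 73.4 (13.01 to 2913). *Agtr1a*, an angiotensin receptor (-2.03), and *Ednrb*, an endothelin receptor (-1.87), were lower. Of the genes that regulate the contractile program, 2 of 13 were higher, the transcription factor *Mef2c* (0.88) and the nuclear receptor partner *Nrip2* (2.63), and 0 lower. The Notch target *Nrarp* (1.70) was the single gene of 7 in the Notch list that passed.

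Matrix genes were mixed. *Eln*, which encodes elastin, averaged 414 ± 187 CPM (SD, n = 11) against 138 ± 32.2 (n = 6), and every smooth muscle sum, the lowest at 219 CPM, lay above every pericyte sum, the highest at 173. Its log2 difference was 1.83 ± 0.33 (adjusted p = 0.000747). *Lox*, which crosslinks elastin, was higher by 1.95, *Adamts1*, a matrix protease, by 1.05, and the latent TGF-β binding gene *Ltbp1* had 109 UMIs against 1, while the microfibril gene *Mfap2* was lower (-1.51), so 4 of 20 elastic matrix genes were higher and 1 lower (median 0.23). Of 16 basement membrane genes, 1 was higher, the laminin gene *Lama5* (3.23), and 1 lower, the collagen-binding *Sparc* (-1.03). In the list of synthetic phenotype genes, *Thbs1* (1.64) and *Tnc* (1.15), both matricellular, were higher and *Mgp*, an inhibitor of calcification, was lower (-1.51), out of 18 tested.

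Pericyte genes that no rule used were lower in 4 of 16 cases and higher in 0 (median -0.74). These were the metalloreductase *Steap4* (-2.24), *Art3* (-1.58), the platelet-derived growth factor receptor *Pdgfrb* (-0.94) and the transcription factor *Ebf1* (-0.74). *Cygb*, a globin of mural cells, fell outside the lists and was among the 10 largest differences in the pericyte direction, at 172 ± 59.6 CPM against 741 ± 169 (log2 difference -2.20). *Icam1*, which leukocytes bind on vessel walls, was at 0 to 112 CPM in smooth muscle and 87.99 to 486 in pericyte sums (-2.51). Of 22 cytokine, chemokine and adhesion genes, *Icam1* and the tumour necrosis factor receptor *Tnfrsf1a* (-0.70) were lower and 0 were higher. Among interferon-induced genes, *B2m* (-0.86) and *Ifitm3* (-0.84) were lower and 0 of 15 higher. Of 21 dissociation and immediate early genes, 1 was higher and 2 lower, and of 19 vessel growth factors and receptors 2 were higher, *Gas6* (1.98) and *Tgfb3* (1.49), and 1 lower. Of 8 proliferation genes, 0 were higher and 2 lower.

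Genes with no pericyte UMI are given as bounds against a floor of 3 counts over the pericyte sums. *Susd5* was at least 12.4-fold higher, the dystrobrevin *Dtna* at least 8.24-fold, the actin-binding *Xirp1* at least 7.60-fold and the phospholipase *Plcb1* at least 4.69-fold higher in smooth muscle cells.

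Against fibroblasts 1140 genes (20.4%) were higher and 1383 (24.7%) lower in smooth muscle cells, and this comparison shared its smooth muscle sums with the one above. All 28 contractile genes (median 4.25), all 15 channel and calcium genes and 15 of 17 vasoactive receptor and signalling genes were higher. *Lmod1* was the most different of the contractile list at 402 ± 163 CPM (SD, n = 11) in smooth muscle cells and 0.242 ± 0.242 CPM in fibroblasts of the same 11 libraries (log2 difference 9.91 ± 0.23). *Gja4*, a gap junction gene of arteries, was higher by 9.63, and *Rgs4*, which dampens G-protein signals, by 4.62. *Eln* was higher than in fibroblasts too, by 2.37, and the collagen IV gene *Col4a1* by 1.99. Of the synthetic phenotype list, 13 of 18 genes were lower and 2 higher (median -2.68), with *Col1a1*, a fibrillar collagen, at 1227 ± 1442 CPM against 8189 ± 3871 (-3.61).

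No gene passed between the labelled stages. The sums of 11 libraries were compared, each of at least 10 cells and 42667 UMIs, and rest replicate 3 with 8 cells was left out, so rest was represented by 2 libraries. Of 2753 genes, 0 (0.0%) passed for peak, 0 (0.0%) for resolving and 0 (0.0%) for resolved against rest in edgeR's quasi-likelihood test, with 54, 125 and 42 genes at an unadjusted p under 0.05, and DESeq2 called 0, 0 and 0. The smallest adjusted p-values were 0.9915, 0.8762 and 0.9996. The median log2 difference of the contractile list was 0.52 at peak, 0.44 in resolving and 0.20 in resolved libraries, and that of the synthetic list -0.96, -1.43 and 0.15, with 0 genes of either list past the test and all 3 comparisons sharing the 2 rest libraries. Without rest replicate 2, which left 1 rest library, the counts were 16, 12 and 15. The 2 rest libraries differed from each other. *Timp1*, an inhibitor of matrix metalloproteases, was at 124 CPM in one and 887 in the other, and *Col3a1* at 529 and 2999 CPM. The coefficient of biological variation between libraries of 1 label was 0.339, against 0.222 between libraries of 1 run of suffixes.

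By run of suffixes, the libraries with suffixes 4 to 6 stood apart from those with 1 to 3. Of 2753 genes, 211 were higher (7.66%) and 163 lower (5.92%) with suffixes 4 to 6, at the same thresholds, and 933 genes (33.9%) had levels that did not overlap between the 2 runs. Each run holds libraries of 3 labelled stages, so this is no comparison of stages. The stages were not balanced, since suffixes 1 to 3 held a resolving library and suffixes 4 to 6 a resolved one. What separates the runs was not tested. With the label as a term, 228 genes passed. The 374 calls became 162 without rest replicate 2, 170 without peak replicate 2, 190 without resolving replicate 1 and 200 without peak replicate 1, and at least 161 of the 374 were called in the same direction without any 1 library, with 0 reversed. Over all 4 runs, 339 genes (12.3%) differed, 132 without rest replicate 2, 149 without peak replicate 2 and 217 without resolved replicate 1. Between suffixes 10 to 12 and 1 to 3, 0 genes (0.0%) passed, with 152 at an unadjusted p under 0.05 and 2 by DESeq2 or without peak replicate 3. Between suffixes 7 to 9 and 4 to 6, 7 genes (0.254%) passed, and 0 did so without rest replicate 2, peak replicate 3, resolved replicate 1 or resolved replicate 3.

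Matrix genes of the synthetic state were higher with suffixes 4 to 6. Of the 19 synthetic phenotype genes tested, 10 were higher and 0 lower, with a median log2 difference of 1.16, against -0.05 over all genes. *Timp1* was at 124, 8.60 and 12.9 CPM in the libraries with suffixes 1, 2 and 3 and at 750, 887 and 417 CPM with suffixes 4, 5 and 6. With suffixes 7 to 9 it was at 305, 331 and 66.9 CPM and with 10 to 12 at 56.7, 67.6 and 98.2 CPM. All libraries with suffixes 4 to 6 were above every other library (log2 difference from suffixes 1 to 3 of 3.53 ± 0.50, adjusted p = 0.00103). The fibrillar collagen *Col3a1* was at 529, 395 and 129 CPM with suffixes 1 to 3 and at 3175, 2999 and 2058 CPM with 4 to 6 (2.89 ± 0.41, adjusted p = 0.00103). It stayed high with suffixes 7 to 9, at 1547, 4097 and 1706 CPM, and was low with 10 to 12, at 246, 507 and 365 CPM. *Col1a1* (3.21), *Col1a2* (2.92), the matrix metalloprotease *Mmp3* (3.29, but not with the label as a term), fibronectin *Fn1* (2.27), *Tnc* (2.07) and the leukocyte adhesion gene *Vcam1* (2.42) were higher too, as were *Tpm4* (1.36) and *Vim* (0.75), cytoskeletal genes of the synthetic state.

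**Figure D3:**
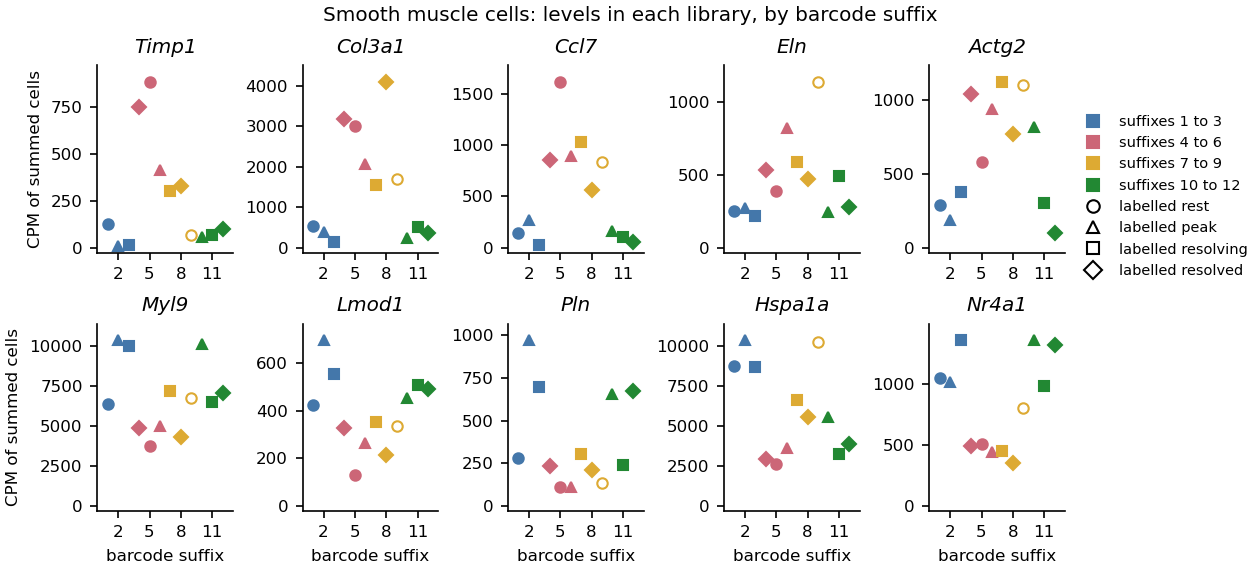
Levels of 10 genes (CPM of summed smooth muscle cells, linear axes) in the 12 libraries ordered by barcode suffix, coloured by run and shaped by label, with rest replicate 3 (8 cells, not tested) open. *Timp1* and *Col3a1* were higher with suffixes 4 to 6 than with 1 to 3 and *Myl9*, *Lmod1*, *Pln*, *Hspa1a* and *Nr4a1* lower. Levels of these genes did not overlap between the runs, and only the labels rest and peak occurred in both.

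Parts of the vessel wall and basement membrane lists were higher too. *Eln* was at 248, 275 and 219 CPM with suffixes 1 to 3 and 531, 385 and 823 CPM with 4 to 6, with no overlap (1.23 ± 0.30, adjusted p = 0.0156). The microfibril gene *Fbn1* (2.81), the fibronectin receptor subunit *Itga5* (2.51) and the crosslinking enzyme *Loxl2* (3.28) were also higher, while *Aspn*, a small proteoglycan, was lower (-0.87), making 4 of 16 elastic matrix genes higher and 1 lower (median 0.39). Of 12 basement membrane genes, 5 were higher and 1 lower (median 0.93). *Col4a1* averaged 471 ± 60.4 CPM (SD, n = 3) against 160 ± 102 (1.45), and its partner *Col4a2* (1.24), *Col18a1* (1.43) and the linker *Nid1* (2.01) were higher. *Col15a1* had 46 UMIs against 2, a ratio of 14.3 (3.75 to 122). *Sparcl1*, an anti-adhesive relative of *Sparc*, was lower (-0.95).

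Contractile genes did not move as a block. Of 28, 2 were higher and 4 lower with suffixes 4 to 6 (median -0.35). *Actg2* was at 287, 189 and 374 CPM with suffixes 1 to 3 and at 1039, 578 and 939 CPM with 4 to 6 (1.61 ± 0.47, adjusted p = 0.0319, and 0.0526 with the label as a term), and *Des* was higher by 0.96. *Myl9* was at 6382, 10348 and 9962 CPM and then at 4890, 3747 and 4969 CPM, with no overlap (-0.97 ± 0.24, adjusted p = 0.0144). *Lmod1* was at 425, 696 and 555 CPM and then 329, 131 and 266 CPM (-1.16). The Z-disc gene *Pdlim3* (-1.07) and the myosin phosphatase subunit *Ppp1r12a* (-1.06) were lower. *Tagln*, at 5689, 7211 and 8362 CPM and then 6478, 4325 and 7032 CPM, overlapped and did not pass (-0.25, adjusted p = 0.477), nor did *Cnn1* (0.82, adjusted p = 0.293). The rule genes *Myh11* and *Acta2* are given without a test, *Myh11* at 1737, 1564 and 2878 CPM and then 1583, 825 and 1160 CPM, and *Acta2* at 12241, 17749 and 17459 CPM and then 15899, 12366 and 16861 CPM.

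Some of the genes that tune contraction were lower. Of 11 channel and calcium genes, 3 were lower and 0 higher (median -0.58). *Pln* was at 281, 971 and 697 CPM with suffixes 1 to 3 and 232, 108 and 110 CPM with 4 to 6 (-2.04 ± 0.44, adjusted p = 0.00859). The calcium store protein *Casq2* (-2.43) and the potassium channel *Kcna5* (-2.49) were lower, from 15 and 5 UMIs in suffixes 4 to 6. Of 13 vasoactive receptor and signalling genes, 4 were lower and 0 higher (median -0.80). These were both subunits of the nitric oxide receptor guanylate cyclase, *Gucy1a3* (-1.14) and *Gucy1b3* (-0.93), the calcitonin-family receptor partner *Ramp1* (-0.83) and *Rgs4* (-0.90). The calls of *Gucy1b3* and *Ramp1* were lost with the label as a term and without cells with 3 or more fibroblast markers. *Nrip2* was at 425, 782 and 439 CPM and then 154, 84.8 and 100.4 CPM (-2.24 ± 0.31, adjusted p = 0.00103), and *Mef2c* was lower by 0.90 on the log2 scale, the 2 that passed of 8 regulators. *Hes1*, a Notch target, was lower (-2.21), the single gene of 4 in the Notch list that passed. Fibroblasts had *Ramp1* at 80.2 and 10.4 CPM with suffixes 1 to 3 and 4 to 6, *Hes1* at 127 and 48.4 and *Mef2c* at 55.4 and 25.3. There *Rgs4* went the other way (8.84 and 22.8 CPM). *Pln*, *Casq2*, *Kcna5*, *Gucy1a3*, *Gucy1b3* and *Nrip2* stood at 2.25 CPM or less in fibroblasts of both runs.

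Of the 16 cytokine, chemokine and adhesion genes tested, 4 were higher with suffixes 4 to 6 and 0 lower (median 0.72), the adhesion gene *Vcam1* and 3 chemokines. *Ccl7*, which draws monocytes, was at 144, 266 and 25.8 CPM with suffixes 1 to 3, at 851, 1619 and 893 CPM with 4 to 6, at 1031, 565 and 836 CPM with 7 to 9 and at 164, 101 and 56.1 CPM with 10 to 12. The libraries with suffixes 4 to 9 thus lay above all the others, with no overlap (2.85 ± 0.46 for 4 to 6 against 1 to 3, adjusted p = 0.00240). The neutrophil chemokine *Cxcl2* was higher by 1.73, and *Cxcl5*, another neutrophil chemokine, had 109 UMIs against 0, at least 22.6-fold higher. Both were higher in fibroblasts too, *Cxcl2* at 112 and 259 CPM and *Cxcl5* at 0.502 and 1268 CPM with suffixes 1 to 3 and 4 to 6. *Il6*, the inflammatory cytokine, ranged from 710 to 3181 CPM and from 1943 to 2881 CPM and did not pass (0.33, adjusted p = 0.677), nor did the monocyte chemokine *Ccl2* (1.15, adjusted p = 0.247). Of 9 interferon-induced genes, *Bst2* (1.22) and *Ifitm3* (1.06) were higher and *Irf1* (-1.42) lower. Among pericyte genes *Postn*, a matricellular gene, was higher (3.198) and *Cox4i2*, a mitochondrial subunit, lower (-1.14), out of 14.

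Heat shock and immediate early genes were lower with suffixes 4 to 6, in 8 of 20 cases with 0 higher (median -0.76). *Hspa1a*, an inducible heat shock protein, was at 8740, 10374 and 8684 CPM with suffixes 1 to 3 and at 2917, 2637 and 3644 CPM with 4 to 6 (-1.59 ± 0.21, adjusted p = 0.00103). The nuclear receptor gene *Nr4a1* was at 1045, 1014 and 1355 CPM and then 491, 509 and 437 CPM (-1.24). *Hspa1b* (-1.98), *Btg2* (-1.59), *Gadd45b* (-1.40) and *Atf3* (-1.02) were lower too. In fibroblasts the mean *Hspa1a* level was 5646 CPM with suffixes 1 to 3 and 1703 CPM with 4 to 6, so this difference was not particular to smooth muscle cells. The list is known to respond to enzymatic release of cells, and the part of tissue handling in it was not tested. *Fgf1*, a growth factor, was lower (-1.92), the single gene of 11 vessel growth factors and receptors that passed.

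**Figure D4:**
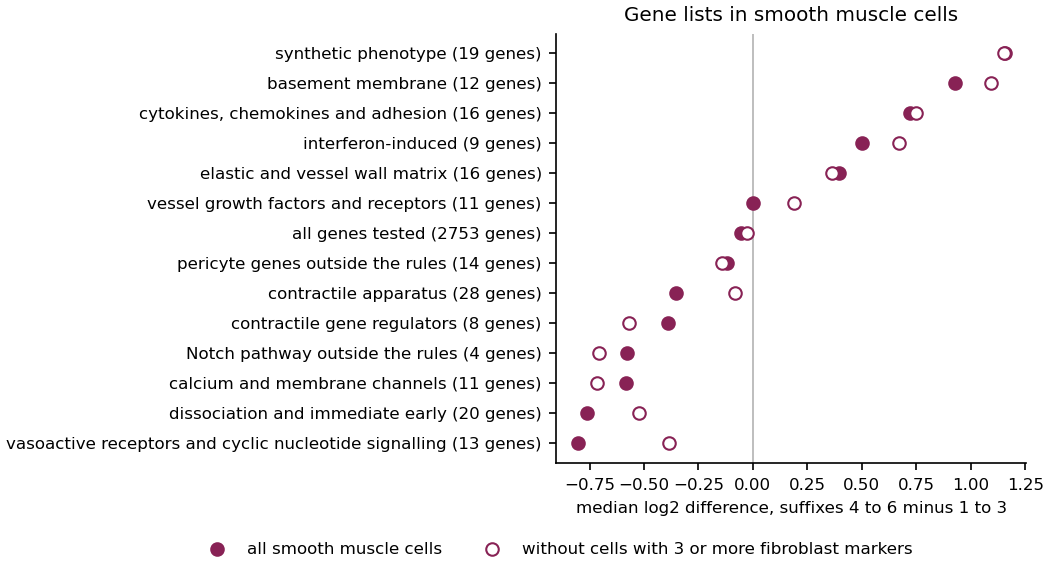
Median log2 difference in smooth muscle cells between suffixes 4 to 6 and 1 to 3 for 13 gene lists and all genes tested (horizontal axis), over all cells (filled) and without cells with 3 or more fibroblast markers (open). Of the lists plotted, the synthetic list stood highest at 1.16 and 1.15, and the contractile list at -0.35 and -0.08.

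Fibroblast RNA moved with these results. The summed level of 9 fibroblast markers was 1796 to 3762 CPM with suffixes 1 to 3 and 4332 to 5906 CPM with 4 to 6. Among these markers *Col1a1*, *Dcn* and *Lum* are also in the synthetic list. Cells were counted on the same markers without *Col1a1* and *Gsn*, so *Dcn* and *Lum* were kept. Of these, 3 or more were detected in 23 of 88 cells with suffixes 4 to 6, against 5 of 72 with suffixes 1 to 3. *Prg4*, the lubricin of lining fibroblasts, was at 144, 94.5 and 77.4 CPM and then at 6588, 2991 and 502 CPM (4.92 ± 0.70, adjusted p = 0.00103). Without the 43 cells with 3 or more fibroblast markers its log2 difference was 0.35 (adjusted p = 0.663), while in fibroblasts *Prg4* was at 21079 CPM with suffixes 1 to 3 and 7104 CPM with 4 to 6. *Slpi*, a protease inhibitor, had 151 UMIs against 0, at least 31.4-fold higher, and in fibroblasts went from 23.4 to 1133 CPM. *Timp1* in fibroblasts went from 401 to 4838 CPM and *Ccl7* from 652 to 3014 CPM, so these 3 genes were higher with suffixes 4 to 6 in both classes. So were *Col3a1* (4737 and 9625 CPM in fibroblasts), *Col1a1* (5660 and 10914 CPM) and *Col1a2* (6455 and 9279 CPM). *Postn* (344 and 1641 CPM), *Tnc* (45.9 and 391 CPM), *Mmp3* (72.5 and 727 CPM), *Vcam1* (45.8 and 140 CPM) and *Fbn1* (200 and 415 CPM) went the same way. Other genes called higher in smooth muscle cells were lower in those fibroblasts, as with *Fn1* (3181 and 2163 CPM) and *Nid1* (134 and 94.5 CPM). *Col15a1* (40.2 and 10.3 CPM) and *Col4a2* (83.4 and 64.5 CPM) were lower too, and *Col4a1* was at 63.1 and 57.2 CPM. Among genes called lower in smooth muscle cells, *Aspn* (1766 and 773 CPM), *Irf1* (113 and 55.2 CPM) and *Cox4i2* (15.7 and 5.24 CPM) were lower in fibroblasts too. *Myl9* (9.58 and 37.0 CPM) and *Nr4a1* (276 and 286 CPM) were not. The fibroblast differences between runs were not tested.

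Without the cells with 3 or more fibroblast markers, 126 genes were higher and 77 lower of 2195, and 186 of the 374 calls held, with 0 in the other direction. In the synthetic list 8 of 14 genes were then higher and 0 lower (median 1.15), in the basement membrane list 4 of 11 higher and 0 lower, and in the elastic matrix list 4 of 15 higher and 1 lower. Of 11 channel and calcium genes 1 was lower, and of 13 vasoactive genes 2. *Timp1* (3.21), *Col3a1* (2.24), *Ccl7* (2.48), *Eln* (1.66), *Actg2* (2.31), *Pln* (-1.51), *Nrip2* (-1.73) and *Hspa1a* (-1.57) still passed. *Lmod1* (-0.76, adjusted p = 0.0625), *Myl9* (-0.64, adjusted p = 0.0592) and *Cxcl5* (5.76 in the fit, adjusted p = 0.155) did not. The same held for *Pdlim3* (adjusted p = 0.231), *Casq2* (0.0529), *Kcna5* (0.148), *Gucy1b3* (0.156), *Ramp1* (0.386), *Nid1* (0.118), *Cxcl2* (0.124), *Bst2* (0.444), *Irf1* (0.0576) and *Fgf1* (0.125), while *Mmp3*, *Vcam1*, *Col15a1*, *Slpi*, *Stmn1* and *Tk1* had too few UMIs left to be tested. The contractile list then had 1 gene higher and 1 lower (median -0.08), and the cytokine, chemokine and adhesion list 1 higher.

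Runs 1 to 3 and 4 to 6 were not balanced for the labels, since the first held a resolving library and the second a resolved one. With the label as a term, 228 genes passed, 216 of them among the 374 and in the same direction, and 179 over all runs. The contractile list then had 0 genes higher and 3 lower, the channel list 2 lower, the vasoactive list 2 lower and the synthetic list 9 higher. *Mmp3* (1.96, adjusted p = 0.299), *Actg2* (1.74, adjusted p = 0.0526), *Ppp1r12a* (-0.84, adjusted p = 0.0574), *Gucy1b3* (-0.79, adjusted p = 0.146) and *Ramp1* (-0.83, adjusted p = 0.100) no longer passed. Neither did *Kcna5* (adjusted p = 0.0885), *Nid1* (0.116), *Irf1* (0.0907), *Fgf1* (0.0523) or *Sult1a1* (0.0675).

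Other marker lists moved as well. The 8 endothelial markers that the rule did not use summed to 142 to 301 CPM with suffixes 1 to 3 and to 373 to 478 CPM with 4 to 6, and their part in these results was not tested. The 8 proliferation genes summed to 51.6 to 111 CPM and then 266 to 655 CPM, with *Stmn1*, a microtubule regulator, at 82 UMIs against 3, a ratio of 17.0 (5.63 to 84.3), and *Tk1*, which makes thymidine nucleotides, at 44 against 0, at least 9.14-fold higher. In fibroblasts *Stmn1* went from 33.5 to 183 CPM and *Tk1* from 7.66 to 68.2 CPM. Chondrocyte markers reached 3899 CPM in 1 library with suffixes 1 to 3, rest replicate 1, and at most 89.3 CPM elsewhere.

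Among the largest differences outside the lists, the haptoglobin gene *Hp* had 160 UMIs with suffixes 4 to 6 against 3, a ratio of 33.2 (11.2 to 163). *Ecscr*, named for endothelial cells, had 51 against 1 (31.8, 5.45 to 1279). Neither difference was particular to smooth muscle cells. In fibroblasts *Hp* went from 36.6 to 729 CPM and *Ecscr* from 12.1 to 102 CPM. In the other direction, *Cd24a*, a surface glycoprotein gene, had 2 UMIs against 27, 21.7-fold lower (5.45 to 188), and the sulfotransferase *Sult1a1* 3 against 29, 15.5-fold lower (4.81 to 79.6). *Tcf15*, a transcription factor of capillary endothelium and muscle precursors, was at 78.4, 189 and 38.7 CPM with suffixes 1 to 3 and at 4.39, 0 and 15.1 CPM with 4 to 6 (-3.72).

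The 7 genes that passed between suffixes 7 to 9 and 4 to 6 came from 2 libraries against 3. *Higd1b*, a mural mitochondrial gene, was at 680 and 532 CPM against 78.9, 84.8 and 191 CPM (2.28 ± 0.38, adjusted p = 0.0299). *Aspn* was higher by 1.44. *Prg4* was lower (-4.20), but at 0.059 without cells with 3 or more fibroblast markers (adjusted p = 0.996). *Cck*, the cholecystokinin gene, was at 2648 and 390 CPM against 219, 46.3 and 166 CPM (3.19). The haemoglobin genes *Hba-a1*, *Hba-a2* and *Hbb-bt* were the rest, and the erythroid markers summed to 9995 CPM in resolved replicate 2 and to at most 799 CPM in every other library. Without that library the haemoglobin differences reversed (-0.66 for *Hba-a1*), so they belonged to 1 library.

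The 297 cells were not uniform. Leiden clustering gave 6 sub-clusters, described here without a test because the clusters were drawn from expression of the same cells. The first (74 cells), led by *Pln*, *Mob2*, *Kcna5*, *Nrip2* and *Hes1*, held 52.8% of the cells with suffixes 1 to 3 and 7.95% of those with 4 to 6. The second (74 cells) was led by *Fabp5*, *Ifitm1*, *Col5a3*, *Col15a1* and *Ccl7* and held 6.94% of suffixes 1 to 3, 31.8% of 4 to 6, 50.6% of 7 to 9 and 3.33% of 10 to 12. It had the lowest pooled *Myh11* (559 CPM) and *Tagln* (2381 CPM) and the highest *Rgs5* (8000 CPM), with *Kcnj8* at 261 CPM, and 41.9% of its cells came from 1 library. The third (34 cells), led by *Arc*, *Ogn* and *Ntrk3*, had the highest *Myh11* (3141 CPM), *Tagln* (12051 CPM) and *Cnn1* (1433 CPM) and the lowest *Des* (41.2 CPM).

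The fourth (37 cells) was led by *Ccrl2*, *Vps37b*, *Txndc11* and *Crem*, the last a transcription factor that responds to cyclic AMP, and held from 6.49 to 25% of the cells of each run. The fifth (33 cells), led by *Apoe*, *Gstm1*, *Fst* and *Colec11*, had no *Pln* UMI and *Rgs5* at 3763 CPM. The sixth (45 cells) was led by the fibroblast genes *Prg4*, *Lum*, *Dcn* and *Comp* and by *Fn1*. Of its cells, 28.9% had 3 or more fibroblast markers, against 25.7% in the second and 15.2% in the fifth. The share was 2.70% in the first, 2.94% in the third and 8.11% in the fourth. It held 35.2% of the cells with suffixes 4 to 6, 14.3% of those with 7 to 9, 2.78% of those with 1 to 3 and 1.67% of those with 10 to 12. Median depth was 6344 UMIs in the sixth, 5371 in the second and 3779 to 4385.5 in the others. The 2 deepest sub-clusters were thus also the 2 most common with suffixes 4 to 6.

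**Figure D5:**
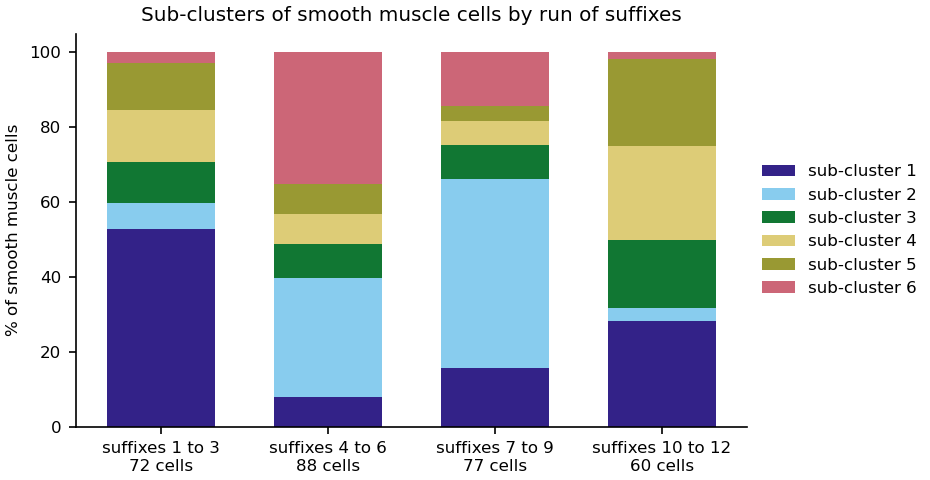
Share of the smooth muscle cells of each run of suffixes that fell in each of the 6 sub-clusters (vertical axis, percent). The first held 52.8% of suffixes 1 to 3, the second 50.6% of 7 to 9 and the sixth 35.2% of 4 to 6.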

How the data were processed

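The authors aligned reads to mm10 with Cell Ranger and deposited whole-number counts of UMIs per gene and cell (27998 genes, 21042 cells, 12 libraries); mouse age and sex come from the methods. Cells with more than 500 and fewer than 5000 detected genes were kept. Median UMIs per deposited cell was the same in every library, and how this came about is not given in the sources used here. No doublet caller was run. As an alternative, cells with 3 or more fibroblast markers (of *Pdgfra*, *Pdpn*, *Dcn*, *Lum*, *Serpinf1*, *Fbln1* and *Clec3b*) were left out. UMIs were summed per library over at least 10 cells (sums of at least 5 cells were chosen after seeing the data), filtered with filterByExpr, scaled by TMM and tested with edgeR 4.0.16 (R 4.3.3, quasi-likelihood, Benjamini-Hochberg over all genes). Genes used by the rules were left out of the class comparison. DESeq2 1.42.0 was an alternative. Scripts were tested on simulated data.

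Genes were named if used by a rule, if among the 10 largest calls each way that were the same in every library pair or did not overlap between groups, or if among up to 5 called genes of a list and comparison; others named were chosen after their values were seen. The members and lists were chosen with earlier results of these data known. Sub-clusters came from scanpy 1.11.5 (1000 variable genes, 15 components, 15 neighbours, resolution 0.5). Ratios and bounds from UMI counts pool all tested sums of a group, paired or not. Fold intervals cover counting error only, and replicates are pools of animals. A few genes that met the naming rule are not reported here.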

Additional observations from a re-analysis of the deposited data

How the results depend on the processing

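Few cells limit these results: rest replicate 3 gave 8, and the smallest tested sum held 42667 UMIs. Leaving out 1 library at a time, genes past the threshold numbered 275 to 425 against pericytes, 162 to 406 for suffixes 4 to 6 against 1 to 3, 0 to 9 for 7 to 9 against 4 to 6, 0 to 2 for 10 to 12 against 1 to 3, 132 to 449 over all runs, 0 to 16 for peak, 0 to 12 for resolving and 0 to 15 for resolved against rest. The last 3 were above 0 only without rest replicate 2, which left 1 rest library. The share test over labels ranged from p = 0.0275 to 0.425 (exact permutation), and resolving minus rest from -0.42 to 0.149 points.

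With no filter on low counts, the counts were 4421 against fibroblasts, 39, 62 and 28 for the labels, 36 for 7 to 9 against 4 to 6, 37 for 10 to 12 against 1 to 3 and 569 over all runs. DESeq2 gave 212 for 4 to 6 against 1 to 3, 3 for 7 to 9 against 4 to 6, 2 for 10 to 12 and 220 over all runs. Cells thinned to 2000 UMIs gave 1307 against fibroblasts, 97, 4 and 1 for the runs and 67 over all. Of the 374 calls for 4 to 6 against 1 to 3, 251 could then be tested, 94 held and 1 went the other way. *Lmod1* (adjusted p = 0.101), *Ppp1r12a* (0.241), *Mef2c* (0.0880), *Gucy1a3* (0.216), *Col4a1* (0.147) and *Col4a2* (0.0670) were among those that did not pass. *Timp1*, *Col3a1*, *Ccl7*, *Eln*, *Actg2*, *Myl9*, *Pln*, *Nrip2* and *Hspa1a* still passed. Without cells with 3 or more fibroblast markers there were 686 against pericytes, 203, 3 and 1 for the runs and 155 over all. Fitting 2 classes alone gave 156 against pericytes and 3866 against fibroblasts. The label as a term gave 228, 4 and 179 for 4 to 6, 7 to 9 and all runs, and the run as a term 1 for peak and 2 for resolving. The 2 labels alone gave 2 for resolving. Sums of at least 5 cells gave 1 for 7 to 9 against 4 to 6.

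With mural cells as the denominator the share test over runs gave p = 0.00922 (exact permutation), and resolving minus rest was 11.9 points. Reversed genes were *Ramp1* (0.11, thinned), *Prg4* (0.059, 7 to 9 without fibroblast-marker cells), *Hba-a1* (-0.91 with 3 or more *Myh11* UMIs, -0.66 to 4.21 leaving out 1 library), *Hba-a2* (-0.60, -0.26 to 4.35, and -0.24 without fibroblast-marker cells) and *Hbb-bt* (-0.54 to 4.72 leaving out 1 library). The cause of these changes was not tested beyond the fewer genes or sums each setting leaves. With a replicate block, 1 gene passed for peak, 0 for resolving and 0 for resolved. Same-numbered libraries correlated in their deviations from the group means at -0.33 to 0.50 over 15 pairs, with a median of 0.24. The median was 0.29 over 10 pairs of the same run and -0.20 over 28 pairs that shared neither. Deviations within a label cancel out, so these pairs are not independent. Many same-numbered libraries also share a run, so number and run cannot be told apart. The main fits used no pairing by number.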

Other observations

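Each of the 11 summed libraries of smooth muscle cells was matched to the library whose log2 CPM over 2753 genes was most alike. The nearest library was of the same run of suffixes for 4 of 11 and of the same label for 2 of 11, with r across genes from 0.815 to 0.941. The 2 of the same label were peak replicates 1 and 3, matched to each other. The same-run matches were the libraries with suffixes 4 to 6 and resolved replicate 3. Whether either count exceeds chance was not tested. Genes are not independent replicates, and the summed libraries differ in total UMIs.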
